A study of Mus musculus with 6 samples.

Results

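A set of 40 genes that act in the G2 and M phases of the cell cycle were followed in messenger RNA of the nasomaxillary complex, the developing skeleton of nose and upper jaw with the soft tissue around it. The genes were taken by symbol from a list of cyclins, mitotic kinases, kinesins, kinetochore proteins and cytokinesis factors, and 40 of 40 were found among the 24346 gene symbols measured. The tissue came from E17.5 mouse embryos. The 3 control libraries carried Pth1r f/f, that is, a floxed gene for the parathyroid hormone receptor (which also binds the related peptide PTHrP), and no Cre. The 3 mutant libraries were Wnt1-Cre:Pth1r f/f, in which the same floxed gene is combined with a Cre transgene that acts in neural crest cells, the source of most of the facial skeleton. All 6 were untreated. Nothing in the labels ties a library to its own embryo or litter, and p-values therefore describe only how much these samples vary. Because the controls lack Cre, receptor loss and the transgene itself cannot be told apart.

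Mitosis is driven by cyclin-dependent kinase 1 bound to cyclins A and B. Its activity condenses chromosomes, builds the spindle and attaches chromosomes to it through kinetochores, until the spindle checkpoint lets the anaphase-promoting complex destroy cyclin B and the cell divides. Most of the genes involved are switched on late in the cell cycle by B-Myb and FoxM1 and are repressed in resting cells by the DREAM complex, which binds promoters at the CHR element. In the growing face, dividing cells are found in cartilage, in the osteogenic mesenchyme, in epithelium and in muscle and nerve precursors, and a whole-tissue level averages over all of them.

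All 40 mitosis genes had lower mean levels in mutant than in control libraries. Control replicates 1 to 3 had summed levels of 825, 802 and 845 FPKM (fragments scaled by transcript length and by the number of mapped fragments in the library). Mutant replicates 1 to 3 had 673, 674 and 648 FPKM. No mutant sum reached a control sum. The median gene stood at 79.6% of its control mean, with a range from 71.6% for Ndc80 to 98.2% for Cdc25b. In 35 of 40 genes all 3 mutant values lay below all 3 control values, against 9.16% of all 14766 genes tested, and in 0 of 40 were all mutant values above all control values (7.85% of all genes). The 40 genes were measured in the same 6 libraries and most share regulators, so counts over them are not counts of independent observations. Single changes were small: by limma, with p-values adjusted over every gene tested (Benjamini-Hochberg), 2 of 40, Nusap1 and Top2a, fell at an adjusted p under 0.05, a rule met by 0.203% of all genes in that direction and by 0.264% in either direction. At an adjusted p under 0.1 there were 7 of 40, against 0.413% of all genes. Both calls at 0.05 were lost when any 1 library, control or mutant, was left out (limma adjusted p from 0.0793 to 0.169 for Nusap1 and from 0.0865 to 0.171 for Top2a).

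The promoters of these genes are shown first. The genes were listed by function, and genes of this function are known for the CHR element, as stated above. The motif shares below are therefore not independent of the choice of genes. They describe the list and use no control or mutant value. The sequences are from a set of RefSeq promoters (GRCm38.p6, the same coordinates as mm10). In the set used here, 33 of the 40 genes had an entry of 250 bases before to 50 after a transcription start. Foxm1, Ccna2, Cdc25c, Aurkb, Incenp, Tpx2 and Kif20a were not matched. Bases before the start are printed for the 6 matched genes among the 7 with an adjusted p under 0.1. Each line runs from 180 bases before the start to the base before it, 5′ to 3′ on the gene's strand, except that Ccnb1 ends 55 bases before the start. The GENCODE annotation starts Ccnb1 and Cdk1 further upstream than RefSeq does, and the last 30 bases printed for Ccnb1 and the last 26 for Cdk1 lie inside the annotated gene. Capitals mark TTTGAA, the CHR element, and CCAAT, the box bound by NF-Y, on either strand (TTCAAA and ATTGG when read on the other).
Nusap1, chr2:119618118-119618297, plus strand: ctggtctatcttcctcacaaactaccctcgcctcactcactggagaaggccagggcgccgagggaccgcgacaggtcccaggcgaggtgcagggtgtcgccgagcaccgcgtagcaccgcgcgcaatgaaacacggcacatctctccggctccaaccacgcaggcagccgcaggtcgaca
Top2a, chr11:99024190-99024369, minus strand: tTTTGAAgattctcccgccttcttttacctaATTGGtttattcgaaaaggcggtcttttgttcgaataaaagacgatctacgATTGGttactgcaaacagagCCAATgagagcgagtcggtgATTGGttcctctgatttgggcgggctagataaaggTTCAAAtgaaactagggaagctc
Ccnb2, chr9:70421555-70421734, minus strand: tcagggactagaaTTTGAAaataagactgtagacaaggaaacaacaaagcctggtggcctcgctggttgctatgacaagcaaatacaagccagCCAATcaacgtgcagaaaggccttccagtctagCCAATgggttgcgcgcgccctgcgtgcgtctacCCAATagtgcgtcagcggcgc
Mki67, chr7:135716380-135716559, minus strand: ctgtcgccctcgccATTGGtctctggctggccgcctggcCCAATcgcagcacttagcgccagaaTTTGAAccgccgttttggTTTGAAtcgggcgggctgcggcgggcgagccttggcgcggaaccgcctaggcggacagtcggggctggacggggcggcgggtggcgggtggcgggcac
Cdk1, chr10:69352913-69353092, minus strand: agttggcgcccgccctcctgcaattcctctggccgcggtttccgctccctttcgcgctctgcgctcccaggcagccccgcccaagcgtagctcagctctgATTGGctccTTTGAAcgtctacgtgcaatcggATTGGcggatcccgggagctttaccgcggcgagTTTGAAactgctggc
Ccnb1, chr13:100786541-100786666, minus strand: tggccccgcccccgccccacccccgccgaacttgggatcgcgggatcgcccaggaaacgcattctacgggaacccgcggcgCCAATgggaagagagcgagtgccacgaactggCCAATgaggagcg

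Over the whole window of 300 bases, TTTGAA was present in 24 of the 33 matched mitosis genes (72.7%), against 1585 of 11120 tested genes with an entry (14.3%). CCAAT was present in 25 of 33 (75.8%, against 42.1%), and both in 20 of 33 (60.6%, against 5.74%). Counting each start separately, TTTGAA lay within 50 bases of the start in 24 of 36 mitosis promoters (66.7%) and in 424 of the 14143 promoters of all tested genes. The median GC content was 59.8% in the first and 60.3% in the second. In 54 other M phase genes, described below, 43 were matched, and TTTGAA was present in 25 of these (58.1%) and within 50 bases of the start in 22 of 47 promoters (46.8%). CCAAT was present in 28 of the 43 (65.1%). In the DNA replication genes TTTGAA was present in 3 of 19 matched genes (15.8%) and CCAAT in 13 of 19 (68.4%).

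The printed stretches show 2 TTTGAA matches each in Top2a, Mki67 and Cdk1, of which that of Cdk1 nearest the start lies 15 to 10 bases before it. Ccnb2 has a second match after its start, outside the stretch printed. Nusap1 has neither motif in its window and Ccnb1 has CCAAT alone. The other matched genes without TTTGAA were Cks2, Cdc25b, Birc5, Bub1, Cenpe, Mad2l1 and Nuf2. The median log2 change in mutant was -0.32 over the 24 genes with TTTGAA and -0.22 over the 9 without, with ranges of -0.43 to -0.09 and -0.42 to -0.03, which overlap. The 7 genes that were not matched had a median of -0.29. The difference between these sets was not tested. A match describes letters in this window and not a bound site.

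The levels below are FPKM, given for control replicates 1, 2 and 3 and then for mutant replicates 1, 2 and 3. Changes are limma log2 changes of FPKM + 1, mutant minus control, with their SE, and adjusted p-values are over the 14766 genes whose mean over the 6 libraries reached 1 FPKM, as it did for all 40. The threshold is 0.05. At an unadjusted limma p under 0.05, 35 of 40 were lower and 0 higher, where 5.96% of all genes were lower and 5.35% higher. All 40 changes were negative, as were 50.8% of all genes, whose median change was -0.002 against -0.29 for the mitosis genes. In a whole tissue, fewer dividing cells and less RNA per dividing cell cannot be told apart.

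**Figure D1:**
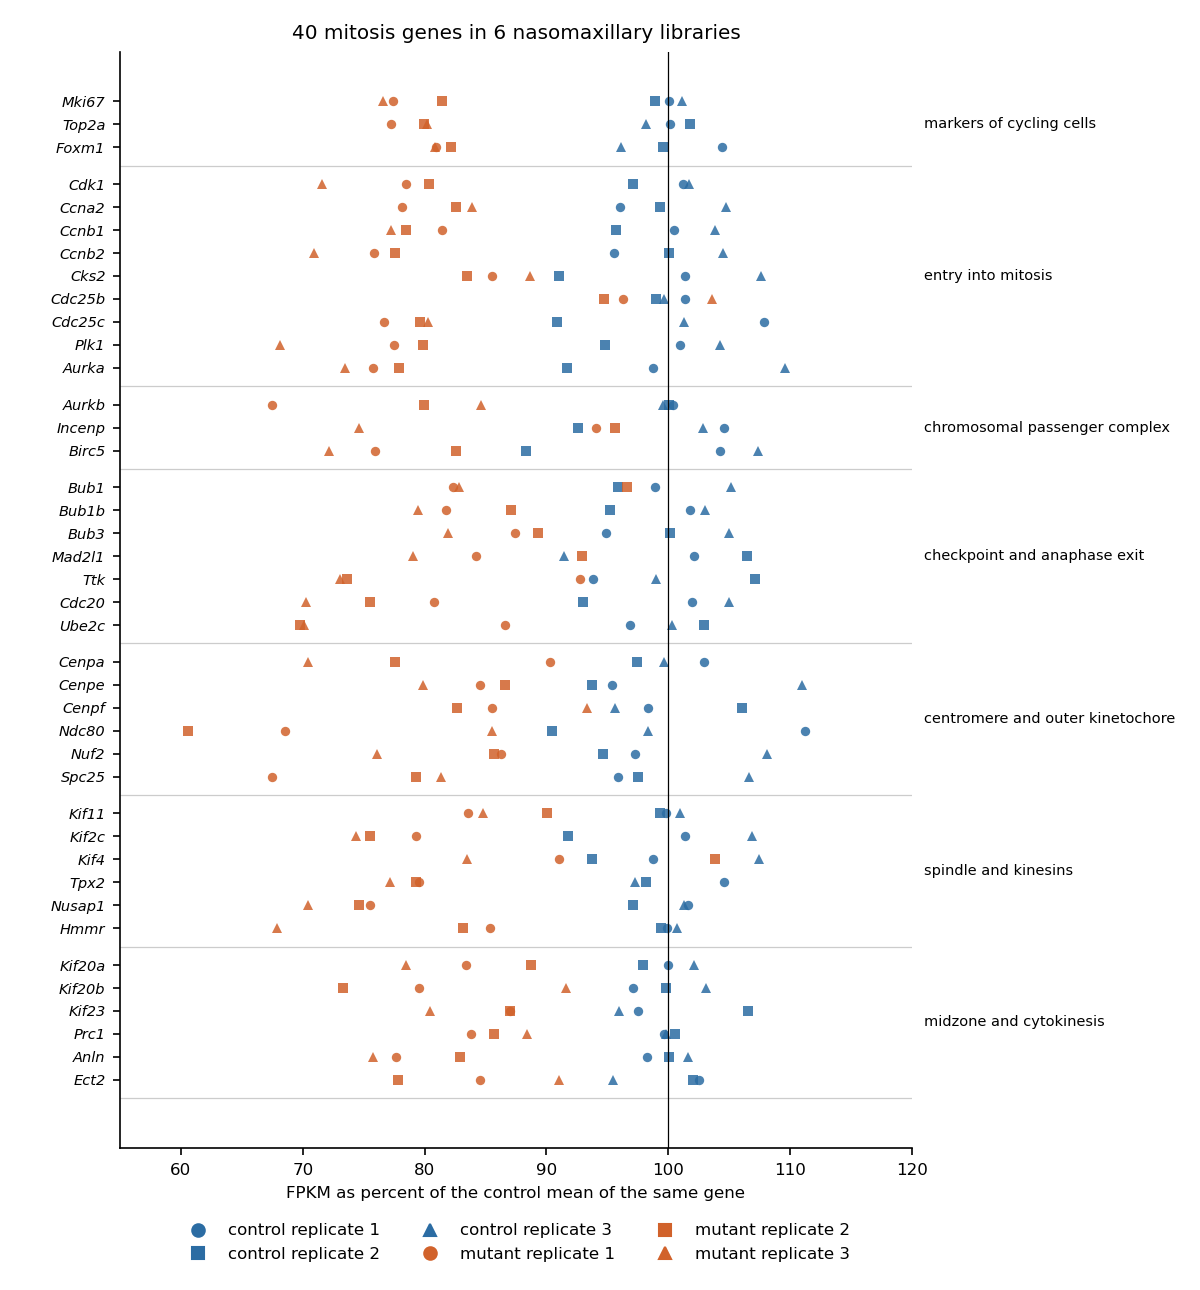
Level of each of the 40 mitosis genes in each library, as percent of the control mean of the same gene (x axis), grouped by role (y axis). Blue symbols are control and orange symbols mutant libraries. The mutant symbols lie to the left of the control symbols in 35 genes, and overlap them in Cdc25b, Incenp, Bub1, Mad2l1 and Kif4.

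Among the general markers of cycling cells, Mki67, which encodes the Ki-67 protein that coats mitotic chromosomes, measured 21.8, 21.5 and 22.0 FPKM in control and 16.8, 17.7 and 16.7 FPKM in mutant. The libraries of each group stood close together, and a gap of 17.4% of the control mean separated the lowest control from the highest mutant. Its log2 change was -0.33 ± 0.048 (SE, limma adjusted p = 0.0614). Top2a, the topoisomerase that untangles sister chromatids (chromosome 11, 98992943 to 99024189, minus strand, GRCm38), measured 42.5, 43.2 and 41.6 FPKM in control and 32.8, 33.9 and 34.0 FPKM in mutant. It fell by 0.33 ± 0.043 on the log2 scale (limma adjusted p = 0.0439), and the groups did not overlap. Foxm1, a transcription factor that activates G2 and M phase genes, measured 15.1, 14.4 and 13.9 FPKM and then 11.7, 11.9 and 11.7 FPKM. The 3 mutant libraries differed by less than 1 FPKM, all below the lowest control, with a limma adjusted p of 0.139.

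In the group that brings cells into mitosis, 8 of 9 genes had separate groups, and by limma 8 were lower at an unadjusted p under 0.05 and 0 past the adjusted threshold. Cdk1, the kinase that starts mitosis, measured 26.3, 25.2 and 26.4 FPKM in control and 20.4, 20.9 and 18.6 FPKM in mutant, 76.8% of the control mean. Mutant replicate 3 was the lowest of the 6 libraries. Ccnb1, the main cyclin partner of Cdk1 at mitotic entry, measured 26.0, 24.7 and 26.8 FPKM and then 21.1, 20.3 and 19.97 FPKM. Ccnb2, the cyclin B that sits at the Golgi, measured 24.2, 25.3 and 26.4 FPKM and then 19.2, 19.6 and 17.9 FPKM, with a log2 change of -0.40 ± 0.057 (limma adjusted p = 0.0614). Both cyclins and their kinase were thus lower in every mutant library than in any control. Ccnb1 stood at 0.989, 0.981 and 1.02 times Cdk1 in control and 1.03, 0.972 and 1.07 times in mutant libraries.

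Ccna2, the cyclin of S and G2 phase, measured 34.9, 36.1 and 38.0 FPKM in control and 28.4, 29.99 and 30.5 FPKM in mutant. Cks2, a small subunit of Cdk1 complexes and the gene of highest level in the list, measured 69.0, 61.9 and 73.2 FPKM and then 58.2, 56.8 and 60.3 FPKM. Its groups were separated only narrowly, by 2.40% of the control mean. Plk1, a kinase of centrosomes and kinetochores, stood at 75.2% of its control mean (19.1 ± 0.912 to 14.4 ± 1.18 FPKM, SD, n = 3 each). Aurka, the kinase of spindle poles, stood at 75.7% (19.5 ± 1.76 to 14.8 ± 0.430 FPKM).

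The phosphatases that activate Cdk1 gave unlike values. Cdc25c measured 6.81, 5.74 and 6.40 FPKM in control and 4.84, 5.03 and 5.07 FPKM in mutant, 78.9% of the control mean. Cdc25b measured 21.5, 21.03 and 21.2 FPKM and then 20.4, 20.1 and 22.0 FPKM. Mutant replicate 3 held the highest Cdc25b value of all 6 libraries, the only one of the 40 genes whose highest value was in a mutant library. Its log2 change was -0.03 ± 0.052, the smallest in the list (limma adjusted p = 0.897). The ratio of Cdc25b to Cdc25c was 3.16, 3.66 and 3.31 in control and 4.22, 3.999 and 4.34 in mutant libraries. With 3 libraries against 3, an exact test of such a ratio could not go below p = 0.10, and none was made.

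In the chromosomal passenger complex, which corrects wrong attachments and later guides cytokinesis, the kinase Aurkb measured 20.2, 20.1 and 20.02 FPKM in control and 13.6, 16.1 and 17.02 FPKM in mutant. The controls were nearly equal and mutant replicate 1 was the lowest. Birc5, which encodes survivin, measured 46.3, 39.2 and 47.6 FPKM and then 33.7, 36.6 and 32.01 FPKM. Incenp, the scaffold, measured 22.9, 20.2 and 22.5 FPKM and then 20.6, 20.9 and 16.3 FPKM. Its groups overlapped, because mutant replicates 1 and 2 lay above control replicate 2, and its limma adjusted p was 0.552.

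Of the 7 genes of the spindle checkpoint and of anaphase, 5 had separate groups. Cdc20, the activator through which the checkpoint holds back the anaphase-promoting complex, measured 37.0, 33.7 and 38.1 FPKM in control and 29.3, 27.4 and 25.5 FPKM in mutant. Ube2c, the ubiquitin-conjugating enzyme of that complex, measured 55.8, 59.3 and 57.8 FPKM and then 49.9, 40.2 and 40.4 FPKM. Both were at 75.5% of their control means, Ube2c with mutant replicate 1 clearly above the other mutant libraries. Ttk, the checkpoint kinase Mps1, measured 5.19, 5.92 and 5.47 FPKM and then 5.13, 4.07 and 4.04 FPKM.

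The BubR1 gene Bub1b stood at 82.8% of its control mean (limma adjusted p = 0.213), with separate groups. Bub3, a partner of Bub1 and BubR1, measured 39.7, 41.8 and 43.8 FPKM in control and 36.5, 37.3 and 34.2 FPKM in mutant, 86.2% of the control mean. The 2 genes of this group whose libraries overlapped were Bub1, a checkpoint kinase (6.67 ± 0.316 to 5.82 ± 0.541 FPKM, log2 change -0.17 ± 0.079, limma adjusted p = 0.474), and Mad2l1, which encodes the Cdc20 inhibitor Mad2 (19.1 ± 1.47 to 16.3 ± 1.34 FPKM, SD, n = 3 each). In Bub1 a single mutant library, replicate 2 at 6.44 FPKM, lay above the lowest control at 6.40 FPKM.

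All 6 genes of the centromere and outer kinetochore had separate groups. Ndc80, which encodes the microtubule-binding arm of the kinetochore, had the largest fitted change (-0.43 ± 0.12) but also the largest SE of the list. It measured 8.68, 7.06 and 7.67 FPKM in control and 5.35, 4.73 and 6.67 FPKM in mutant, so that mutant replicate 3 lay just under the lowest control (limma adjusted p = 0.289). Its partner Nuf2 measured 11.3, 10.96 and 12.5 FPKM and then 9.99, 9.92 and 8.82 FPKM. Spc25, another subunit of the same complex, stood at 76.02% of its control mean, and Cenpa, the histone that marks the centromere, at 79.4%. Cenpe and Cenpf, a kinesin and a large coiled-coil protein of the outer kinetochore, stood at 83.7% and 87.2%, both at control levels near 5 FPKM. Cenpf had a log2 change of -0.16 ± 0.076 and an adjusted p of 0.480 by limma.

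**Figure D2:**
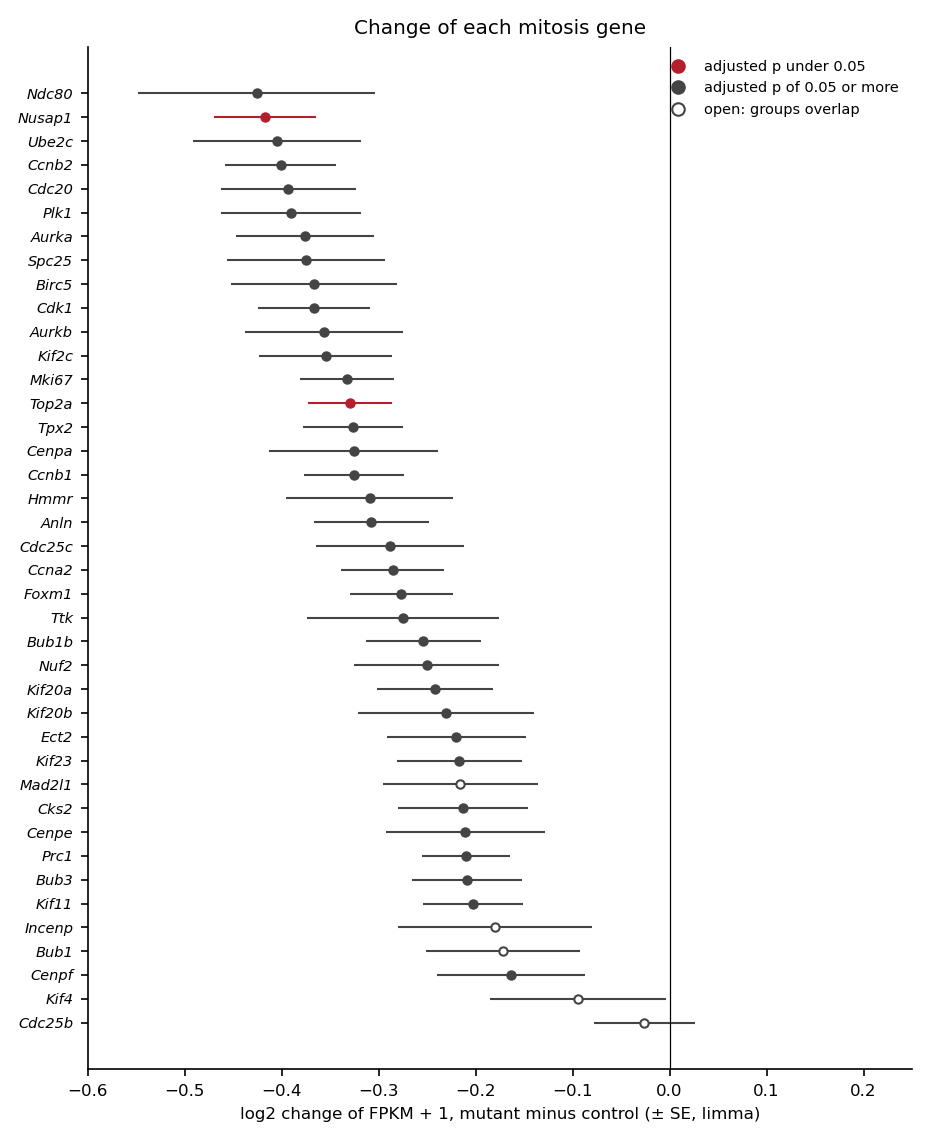
Limma log2 change of FPKM + 1, mutant minus control (x axis, ± SE), for each of the 40 genes ordered by size (y axis). Red marks an adjusted p under 0.05 and open circles mark genes whose groups overlap. All points lie below 0, from -0.43 for Ndc80 to -0.03 for Cdc25b, and 2 are red.

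Among spindle proteins and kinesins, Nusap1, which bundles microtubules around chromosomes (chromosome 2, 119618298 to 119651244, plus strand, GRCm38), had the smallest p of the list. It measured 18.3, 17.52 and 18.3 FPKM in control and 13.6, 13.5 and 12.7 FPKM in mutant. A gap of 21.6% of the control mean, the widest of the 40 genes, separated the groups. It fell by 0.42 ± 0.052 on the log2 scale (limma adjusted p = 0.0334), to 73.5% of the control mean. Tpx2, the activator of Aurora A on the spindle, measured 19.9, 18.7 and 18.5 FPKM and then 15.1, 15.1 and 14.7 FPKM (limma adjusted p = 0.0816).

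Kif2c, a kinesin that takes apart microtubule ends, stood at 76.4% of its control mean, Hmmr, a spindle assembly factor, at 78.8%, and Kif11, the motor that pushes spindle poles apart, at 86.1%. Each had separate groups. Kif4, a chromosome-bound kinesin encoded on chromosome X (100625737 to 100727214, plus strand), was the exception in this group. It measured 5.88, 5.58 and 6.40 FPKM in control and 5.41, 6.18 and 4.97 FPKM in mutant, and mutant replicate 2 lay above 2 of the 3 controls. Its log2 change was -0.09 ± 0.09 (limma adjusted p = 0.757).

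The 6 genes of the spindle midzone and of cytokinesis all had separate groups, and by limma 6 were lower at an unadjusted p under 0.05 and 0 past the adjusted threshold. Prc1, which crosslinks midzone microtubules, measured 26.5, 26.7 and 26.5 FPKM in control and 22.3, 22.8 and 23.5 FPKM in mutant, with every mutant library below every control. Anln, which encodes the contractile ring protein anillin, measured 9.16, 9.32 and 9.47 FPKM and then 7.23, 7.72 and 7.06 FPKM. The kinesins Kif20a and Kif23, which carry the passenger complex and centralspindlin to the midzone, stood at 83.5% and 84.8% of their control means. Ect2, the activator of the contractile ring, stood at 84.5%. Kif20b, a kinesin of late cytokinesis and the gene of lowest level, measured 3.54, 3.64 and 3.76 FPKM and then 2.90, 2.67 and 3.34 FPKM.

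The median change was negative in every role. It was -0.33 for markers of cycling cells, -0.32 for entry into mitosis, -0.36 for the passenger complex, -0.25 for checkpoint and anaphase, -0.29 for kinetochores, -0.32 for the spindle and -0.22 for midzone and cytokinesis. The differences between roles were not tested. Within a role, changes ran from -0.40 to -0.03 for entry into mitosis and from -0.31 to -0.21 for midzone and cytokinesis.

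**Figure D3:**
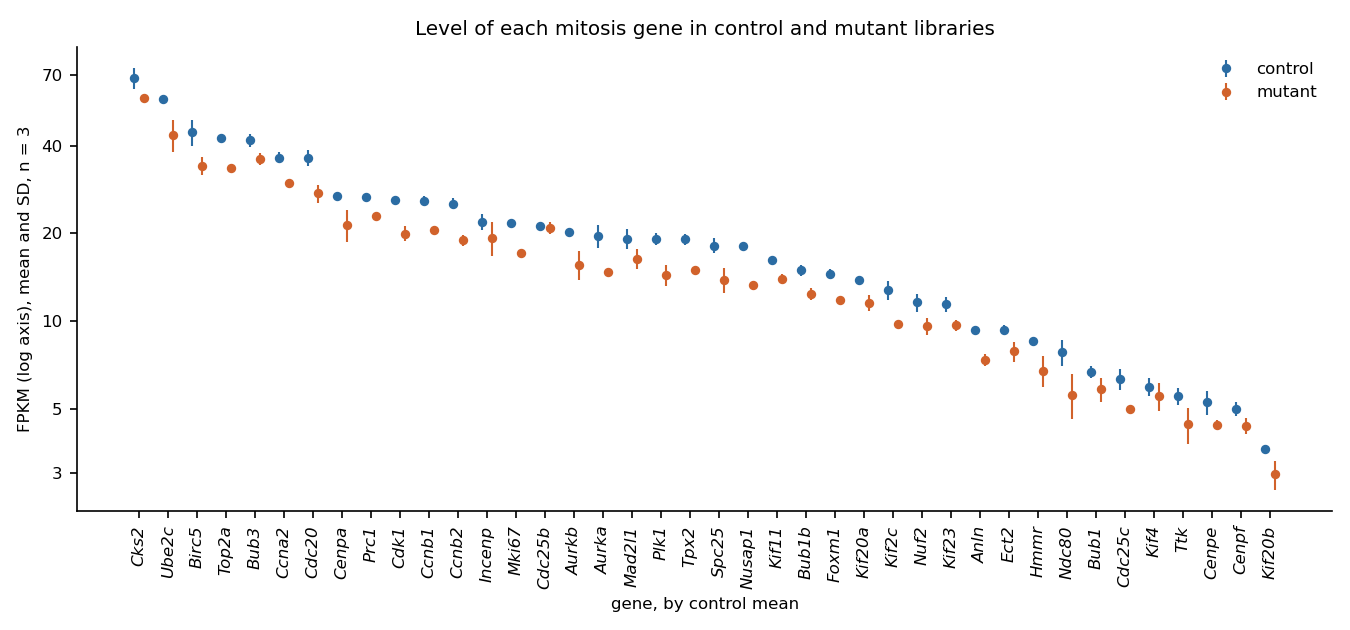
FPKM of each gene on a log axis (mean and SD, n = 3 libraries per group), ordered by control mean, with control in blue and mutant in orange. Levels run from 68.1 FPKM for Cks2 to 3.65 FPKM for Kif20b in control, and the mutant mean lies below the control mean at every level.

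Libraries within a group were alike in this set. The mean log2 difference of the 40 genes from their control means was 0.0041, -0.032 and 0.028 in control replicates 1 to 3 and -0.27, -0.26 and -0.31 in mutant replicates 1 to 3. Mutant replicate 3 held the lowest of the 6 values in 25 genes, mutant replicate 1 in 8 and mutant replicate 2 in 7. Control replicate 3 held the highest in 23. Mutant replicate 3 was also the shallowest library, at an estimated 8300000 fragments against up to 13800000 in the others. For a gene such as Kif20b this amounts to about 155 fragments, if its longest annotated transcript is assumed.

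Sex was unevenly spread. By Xist and Y-linked genes the 3 control libraries and mutant replicate 1 were female and mutant replicates 2 and 3 male. Within the female libraries, mutant replicate 1 lay below all 3 controls in 39 of 40 mitosis genes, against 27.5% of all genes tested. Its mean difference was -0.27, between the -0.26 and -0.31 of the male mutant libraries. Mutant replicates 2 and 3 lay below all controls in 36 and 39 genes, against 31.3% and 30.2% of all genes. With sex as a covariate all 40 changes were negative, with a median of -0.26, but no gene passed the adjusted threshold. That fit compares 1 mutant library with 3 controls.

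Further genes of the cell cycle were taken from lists of related function. Of 54 other M phase genes, such as condensins, further kinetochore subunits and kinesins, 53 had negative changes, with a median of -0.22, or 84.0% of the control level. In 31 of 54 the groups were separate, all lower in mutant, against 9.16% of all genes. By limma 0 passed the adjusted threshold, as 0.203% of all genes did in the lower direction. At an unadjusted limma p under 0.05, 31 were lower and 0 higher, where 5.96% of all genes were lower and 5.35% higher. Racgap1, a partner of Kif23 in centralspindlin, measured 36.6 ± 1.34 FPKM in control (SD, n = 3) against 29.1 ± 1.12 FPKM in mutant libraries (limma adjusted p = 0.0852). Cdca2, which recruits a phosphatase to chromosomes at mitotic exit, measured 7.74 ± 0.275 and 5.38 ± 0.446 FPKM (limma adjusted p = 0.0872).

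The anaphase-promoting complex itself, the ligase that ends mitosis, stood near its control level. Of 14 subunits and activators, 8 had negative and 6 positive changes, with a median of -0.02, and in 0 of 14 were the groups separate. Over all genes the groups were separate in 9.16%, lower in mutant, and in 7.85%, higher in mutant. By limma 0 of 14 passed either the adjusted threshold (0.264% of all genes) or an unadjusted p under 0.05 (5.96% lower and 5.35% higher). Cdc16 measured 56.8 ± 2.80 FPKM in control against 53.0 ± 2.29 FPKM in mutant libraries, and Anapc10 4.23 ± 0.318 and 3.76 ± 0.225 FPKM. Its partners Cdc20 and Ube2c, described above, were at 75.5%, and the difference between these lists was not tested.

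The DNA replication genes lay between these lists. Of 24, 23 had negative changes, with a median of -0.10. The groups were separate in 9, all lower in mutant, against 9.16% of all genes. By limma 0 of 24 passed the adjusted threshold, as 0.203% of all genes did in the lower direction. At an unadjusted limma p under 0.05, 7 were lower and 0 higher, where 5.96% of all genes were lower and 5.35% higher. Tk1, the thymidine kinase of S phase, measured 31.4 ± 0.980 FPKM in control but 24.4 ± 3.04 FPKM in mutant libraries, and Cdt1, the licensing factor of replication origins, 16.7 ± 0.216 and 14.2 ± 0.783 FPKM. The difference between the replication and mitosis lists was not tested.

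Regulators of the cycle were looked at next. Of 12 genes of the DREAM and B-Myb complexes 10 had negative changes (median -0.08). The groups were separate in 3 of 12, all lower in mutant, against 9.16% of all genes. By limma 0 passed the adjusted threshold or an unadjusted p under 0.05, rules met in the lower direction by 0.203% and 5.96% of all genes. Mybl2, which encodes B-Myb, measured 7.93 ± 0.329 FPKM in control against 6.83 ± 0.786 FPKM in mutant libraries, and Rbbp4, a histone-binding subunit, 53.0 ± 1.37 and 49.9 ± 0.444 FPKM. Of 7 tested G1 cyclins and kinases 6 had negative changes (median -0.08), 3 of them at an unadjusted limma p under 0.05 and 0 past the adjusted threshold. Their groups were separate in 4 of 7, all lower in mutant. The cyclins of S phase entry, Ccne1 and Ccne2, measured 9.98 ± 0.685 and 2.64 ± 0.429 FPKM in control and 7.48 ± 0.558 and 1.93 ± 0.147 FPKM in mutant. Cdk6 was below the level needed for testing.

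Among 12 genes that brake the cycle, 7 had negative and 5 positive changes, with a median of -0.02. The groups were separate in 1 of 12, lower in mutant (9.16% of all genes). By limma 0 passed the adjusted threshold and 1 was lower at an unadjusted p under 0.05 (5.96% of all genes). That gene was Cdkn2c, the inhibitor p18, at 11.9 ± 0.386 FPKM in control and 8.62 ± 1.11 FPKM in mutant libraries (limma adjusted p = 0.172). Btg1, an antiproliferative gene, measured 35.9 ± 1.05 and 39.4 ± 2.30 FPKM (limma adjusted p = 0.448). No gene of this list passed the adjusted threshold in either direction, a rule that only 0.264% of all genes tested met.

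**Figure D4:**
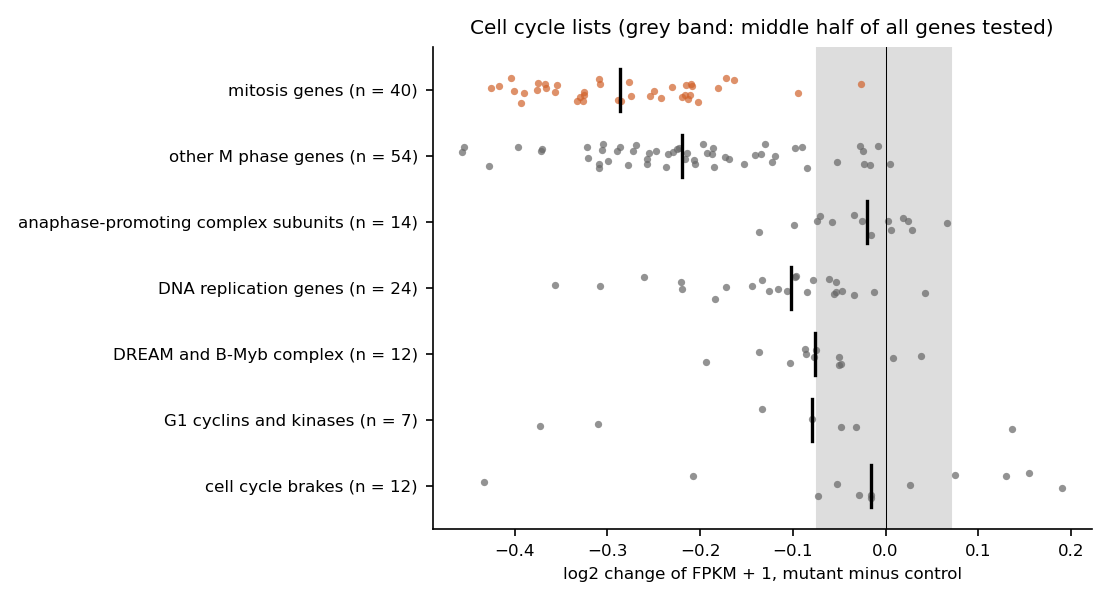
Limma log2 change of FPKM + 1, mutant minus control (x axis), of each gene in the mitosis list (orange) and in the other cell cycle lists (grey), with black bars at list medians and a grey band between the quartiles of all 14766 genes tested. The 40 mitosis genes centre on -0.29 and the other M phase genes on -0.22, while the core anaphase-promoting subunits and the brakes centre on -0.02.

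Tissue markers differed between the same libraries. Of 8 cartilage markers 8 were lower and 6 of them passed the adjusted limma threshold, and their summed level was 1304 to 1587 FPKM in control and 373 to 639 FPKM in mutant. All 8 skeletal muscle markers had positive changes with none past the threshold, at a sum of 225 to 371 FPKM in control and 330.4 to 856 FPKM in mutant. Of 8 markers of skin and oral epithelium 7 had positive changes, again with none past the threshold, at a sum of 688 to 1554 FPKM and then 1769 to 1865 FPKM. The groups were separate, lower in mutant, in 8 of 8 cartilage markers (9.16% of all genes). They were separate, higher in mutant, in 4 of 8 muscle and 7 of 8 epithelial markers (7.85% of all genes). At an unadjusted limma p under 0.05, 4 muscle and 6 epithelial markers were higher and 0 lower, where 5.35% of all genes were higher. No marker of these 3 lists was at 0. Osteoblast markers had 8 of 8 negative changes with overlapping sums (5829 to 8111 and 5235 to 6159 FPKM). The erythroid, leukocyte, neuron, olfactory and endothelial markers had no member past the threshold.

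The mutant libraries differed little from each other in the mitosis genes, so their order carries little weight. Its relation to the order of these markers was not tested. Mutant replicate 3 had the smallest mean difference of the cartilage markers (-1.03, against -1.60 and -1.75 in replicates 1 and 2). It also had the smallest of the muscle markers (0.27, against 0.59 and 1.46). Its difference in the mitosis genes was -0.31, against -0.27 and -0.26. The markers of skin and oral epithelium stood at 0.62, 0.63 and 0.60 in mutant replicates 1 to 3. With the mean of the muscle markers as a covariate 39 of 40 changes were negative, with a median of -0.33, and 0 passed the adjusted threshold. The muscle means themselves differed between the groups (-0.25 to 0.29 in control and 0.27 to 1.46 in mutant libraries), which limits what that fit can show. The part of the cartilage and epithelial differences in the result was not tested.

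**Figure D5:**
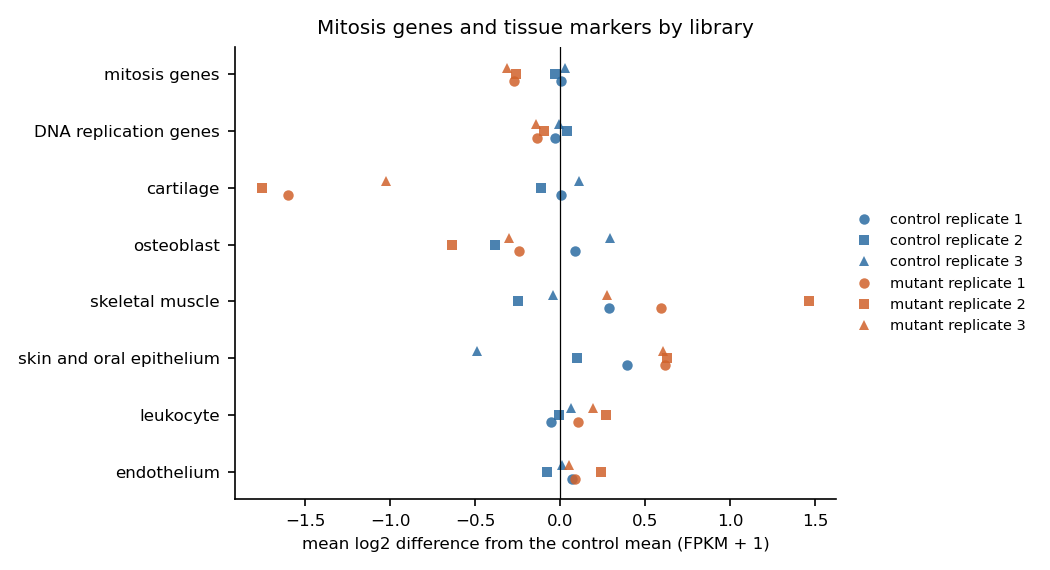
Mean log2 difference from the control mean (x axis, FPKM + 1) of the mitosis genes, the DNA replication genes and 6 lists of tissue markers (y axis) in each library, with control in blue and mutant in orange. The mitosis genes lie at -0.26 to -0.31 in all 3 mutant libraries, and the markers of skin and oral epithelium at 0.60 to 0.63. The cartilage and muscle markers spread more widely among them.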

How the data were processed

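Per the labels' protocols, RNA isolated with TRIzol went into stranded mRNA libraries. Reads were processed on mm10 with TopHat2 2.1.1, Cuffdiff 2.2.1, Bowtie2 2.2.8 and SAMtools 0.1.18, per the submitters' processing notes. Annotation, filters and use of strand: not given in the sources used here. Each file the authors deposited lists FPKM by gene symbol, per the file headers. Groups follow the genotype label and replicates are numbered in accession order. FPKM are not counts, so log2(FPKM + 1) of the 14766 genes whose mean reached 1 FPKM was fitted as deposited with limma 3.58.1 in R 4.3.3 (eBayes with trend, two-sided, 4 residual degrees of freedom). Benjamini-Hochberg adjustment ran over all of them. The fit was tested on simulated data. Depth was estimated from the spacing of low FPKM values: 8300000 to 13800000 fragments per library. This leaves about 97 fragments or more for each mitosis gene in the 2 libraries compared (control replicate 1 and mutant replicate 3). Fragments of a gene were estimated with the length of its longest annotated transcript, so they can be too high where shorter transcripts prevail. No 2 libraries were identical.

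The genes and lists were chosen with earlier results of these data known. All 40 mitosis genes could be named. The rule for naming gave full statistics for those called and for the 4 of smallest change, and named the 3 of highest and of lowest control level. From each other list without a called gene it named the 2 of smallest p. Statistics of other mitosis genes were added after their values were seen. Positions are from GENCODE (GRCm38), and promoters from RefSeq (GRCm38.p6). Alternatives changed the pseudocount, filter, scaling, eBayes options, library weights, covariates and threshold, or left out each library. Plots were drawn with matplotlib 3.10.9.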

Additional observations from a re-analysis of the deposited data

How the results depend on the processing

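Of 19 alternatives, the one with the muscle markers as a covariate turned the sign of a mitosis gene, Cdc25b (0.023 instead of -0.03); a mean of at least 5 FPKM left 36 of 40 tested. The calls of single genes were less stable. The count of mitosis genes called lower was 0 with no filter, no trend, sex or muscle markers as a covariate, 1 with quantile normalization, 4 with a mean of at least 5 FPKM, 5 with library weights and 7 at an adjusted p under 0.1. Leaving out one library gave 0 to 1 calls: 0 without control replicate 1, 2 or 3 or mutant replicate 2 or 3, and 1, Ube2c, without mutant replicate 1. Nusap1 stayed called in 9 of 19 alternatives (limma adjusted p from 0.0224 to 0.516) and Top2a in 8 (0.0227 to 0.355). The median change moved to -0.33 with a pseudocount of 0.1 and to -0.33 with the muscle covariate. The count at an unadjusted limma p under 0.05 ran from 24, with sex as a covariate, to 37, with quantile normalization. Of the other M phase genes 1 was called with library weights and 3 at an adjusted p under 0.1. No paired analysis was possible because the labels give no replicate numbers.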
